A study of Mus musculus with 39 samples.

Results

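The heat shock genes described here are 10 protein-coding mouse genes of cytosolic and mitochondrial chaperones, namely Hspa1a, Hspa1b, Hspa8, Hsph1, Dnajb1, Hsp90aa1, Hsp90ab1, Hspb1, Hspd1 and Hspe1. They were chosen by name, as a readout of handling stress, from the 24421 genes of the nuclear RNA tables. The study compared 2 ways of isolating the same nuclei, and the question here was whether the levels of these genes, and the accessibility of their promoters, differed between the techniques. All nuclei were sfGFP+ and came from the neocortex of mice of both sexes, 13 to 16 weeks old, which carried Arc creERT2 (TG/WT) together with CAG-Sun1-sfGFP-Myc at R26, either M/WT or M/M. In this line the nuclear membrane of cells that express Arc, an activity-induced gene, is tagged with sfGFP once tamoxifen has been given, and the mice received tamoxifen before a social interaction test. Both techniques shared this genotype and treatment, and no unsorted or unhandled nuclei were among the libraries analysed. FANS-nuclei were sorted in a flow cytometer by their fluorescence, whereas INTACT-nuclei were captured on magnetic beads through the tag.

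Nuclear RNA was read in 31 libraries of 10000 nuclei each, from 3 batches of distinct biological sources. There were 4 FANS and 4 INTACT libraries in batch 1. Batch 2 comprised 7 FANS and 4 INTACT libraries, and the numbers in batch 3 were 7 and 5. RNA integrity was higher in batch 1 than in batches 2 and 3. Chromatin accessibility was read by ATAC-seq in 3 technical replicates per technique, 50000 nuclei each, from a single biological source. The labels do not tie libraries to animals, so that the p-values below measure the spread between libraries, which may be technical.

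Heat shock proteins are molecular chaperones that hold or refold other proteins. HSP70 proteins (encoded by Hspa1a, Hspa1b and Hspa8) bind unfolded stretches with the help of J-domain proteins such as the one encoded by Dnajb1 and of exchange factors such as the one encoded by Hsph1, and HSP90 proteins (Hsp90aa1, Hsp90ab1) act on clients at a later stage. HSP60 and HSP10 (Hspd1, Hspe1) form the folding chamber of the mitochondrial matrix, and Hspb1 encodes a small heat shock protein that is abundant in muscle and rises in stressed cells. The inducible members are transcribed within minutes of heat or proteotoxic stress, when heat shock factor 1 (Hsf1) binds heat shock elements, which are inverted repeats of the letters GAA, in their promoters.

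The promoter sequences of 4 members are shown because they hold letter matches to the heat shock element, the motif that heat shock factors are known to bind. RefSeq windows from 250 bases before to 50 bases after the start site were matched for 7 of the 10 members (10 start sites, GRCm38.p6, the build the authors call mm10), and are written 5′ to 3′ on the strand of the gene. Capitals mark matches on either strand to GAANNTTC or TTCNNGAA, the tightest pairs of inverted repeats; where such pairs overlap they form the 3-unit element GAANNTTCNNGAA or its reverse complement.
Hspa1a, chr17:34972107-34972406, minus strand: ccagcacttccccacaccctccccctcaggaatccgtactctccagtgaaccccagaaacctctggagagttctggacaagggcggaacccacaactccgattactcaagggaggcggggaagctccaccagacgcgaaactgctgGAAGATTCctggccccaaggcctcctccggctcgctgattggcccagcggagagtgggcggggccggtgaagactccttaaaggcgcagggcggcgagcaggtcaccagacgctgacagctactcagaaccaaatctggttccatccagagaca
Hspb1, chr5:135887669-135887968, plus strand: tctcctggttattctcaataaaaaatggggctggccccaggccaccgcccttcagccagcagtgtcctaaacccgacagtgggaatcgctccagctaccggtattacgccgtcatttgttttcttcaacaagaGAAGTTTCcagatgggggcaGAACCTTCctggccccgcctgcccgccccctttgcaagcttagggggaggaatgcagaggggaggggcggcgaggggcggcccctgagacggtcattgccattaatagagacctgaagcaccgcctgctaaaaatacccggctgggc
Hsph1, chr5:149636287-149636586, minus strand: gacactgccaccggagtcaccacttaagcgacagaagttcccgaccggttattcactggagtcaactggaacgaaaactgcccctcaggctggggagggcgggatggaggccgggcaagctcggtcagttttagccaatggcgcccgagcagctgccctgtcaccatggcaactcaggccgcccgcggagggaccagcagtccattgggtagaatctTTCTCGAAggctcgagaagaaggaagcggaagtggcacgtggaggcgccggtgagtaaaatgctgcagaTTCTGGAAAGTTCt
Hspe1, chr1:55087898-55088197, plus strand: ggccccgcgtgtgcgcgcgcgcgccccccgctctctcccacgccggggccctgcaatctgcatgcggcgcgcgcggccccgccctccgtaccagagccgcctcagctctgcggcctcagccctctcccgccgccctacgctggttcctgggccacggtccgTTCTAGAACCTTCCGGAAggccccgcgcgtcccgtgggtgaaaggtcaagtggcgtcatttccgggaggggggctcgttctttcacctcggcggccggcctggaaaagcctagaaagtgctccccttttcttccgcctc
The Hspa1a window held a single pair, and the Hspa1b window differed from it at 4 of 300 bases and held the same pair. Hspb1 had 2 separate pairs. Hsph1 had a pair before its start site and a 3-unit element after it, and in Hspe1 the overlapping pairs ran on to 2 overlapping 3-unit elements. The latter stretch also lay in the window of the second start site of Hspd1, which is transcribed in the opposite direction from the same promoter. Neither Dnajb1 window held a pair. Of the 32851 mouse promoter windows, 15.1% held either pair and 0.603% held the 3-unit element, against 7 and 4 of the 10 windows of the members, among which those of Hsph1 overlap each other and those of Hspe1 and Hspd1 share their elements. A match describes these letters only and is not evidence that the factor was bound.

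All RNA libraries had 4205665 to 11028713 reads on genes, and no libraries were duplicates of each other. In batch 1 the INTACT libraries were deeper and had a smaller share of reads outside annotated features, 71.3 to 72.7% against 79.4 to 81.7% in FANS (exact permutation test, two-sided, p = 0.0286, n = 4 and 4). The respective shares were 77.4 to 78.9% and 79.4 to 81.6% in batch 2 (exact p = 0.00606, n = 4 and 7) and 81.9 to 83.0% and 80.0 to 85.1% in batch 3 (exact p = 0.57, n = 5 and 7). The 10 neuronal markers, which include Arc and Rbfox3, summed to 18310 to 28265 normalized counts in every library, and none of them was at 0 throughout. Markers of oligodendrocytes (Mbp, Mog and others) were also present, at a sum of 1681 to 16073 normalized counts over 10 genes.

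The members fell into 3 tiers of abundance. Per kilobase of exon, the mean of the 6 batch and technique groups was 439 normalized counts for Hsp90ab1, 307 for Hspa8, 202 for Hsph1 and 184 for Hsp90aa1. A middle tier held Hspe1 at 77.0, Hspd1 at 70.8 and Dnajb1 at 41.5. The inducible HSP70 genes and Hspb1 were lowest, with Hspa1b at 3.31, Hspa1a at 2.22 and Hspb1 at 0.577. Hsp90ab1 lay wholly above Hspa8 in 5 of the 6 groups, and Hspa8 above Hsph1, Hsp90aa1 above Hspe1, Hspd1 above Dnajb1 and Dnajb1 above Hspa1b in all 6. Hsph1 and Hsp90aa1, Hspe1 and Hspd1, and Hspa1b and Hspa1a were neighbours that separated in only 1 group each, and Hspa1a and Hspb1 separated in 2. These levels are limited by mapping, since only uniquely mapped reads were counted. Of all 70-base stretches of exon, the length of a read, 85.6% of those of Hspa8 and 76.9% of those of Hsp90aa1 occurred at another place in the genome as well, and reads lying wholly in them could not be counted. For Hsph1 and Dnajb1 this share was 0%, so that levels are not on an equal footing between these genes. The share was 58.8% for Hspa1a and 56.9% for Hspa1b, which are near-identical neighbours on chromosome 17, 61.3% for Hspb1, 41.2% for Hspd1, 19.7% for Hspe1 and 2.57% for Hsp90ab1. Exons of Hspd1 and Hspe1, which lie on opposite strands, overlap on chromosome 1, and how reads there were counted is not stated. The differences between techniques below are within a gene. In batch 1, reads that did not align uniquely were 2.97 to 3.05% of the tabulated reads in FANS and 3.14 to 3.35% in INTACT, with no overlap. These shares overlapped in batch 2 (2.87 to 3.13% and 3.09 to 3.20%) and batch 3 (2.77 to 3.19% and 2.85 to 3.01%). Their part in the differences was not tested.

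**Figure D1:**
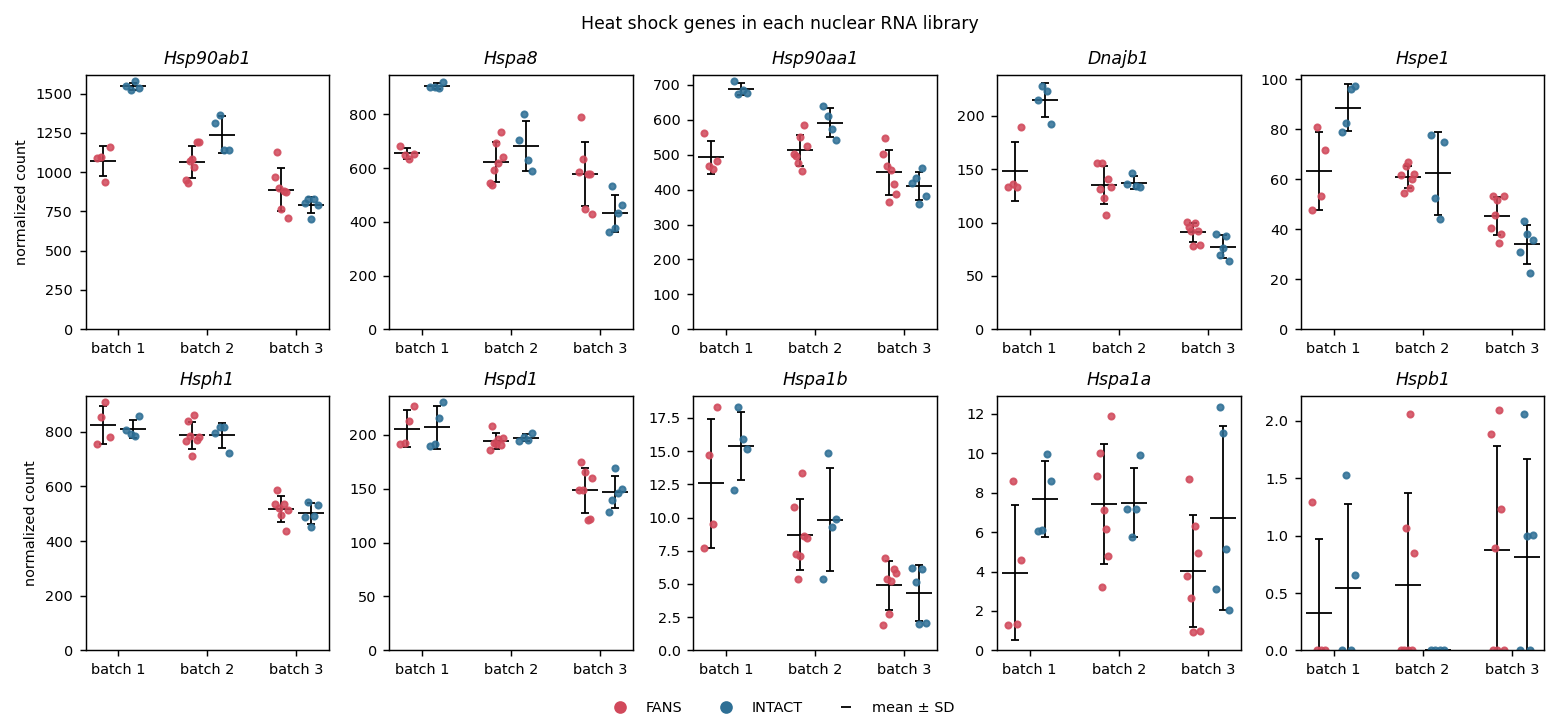
Normalized counts of the 10 heat shock genes (vertical axes, each from 0) in each FANS (red) and INTACT (blue) library of the 3 batches, with mean ± SD in black; error bars that would pass below 0 are cut at the axis. In batch 1 all 4 INTACT libraries lie above all 4 FANS libraries for Hsp90ab1, Hspa8, Hsp90aa1 and Dnajb1, while Hsph1 and Hspd1 overlap in every batch.

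In batch 1, the batch of higher RNA integrity, the HSP90 genes, Hspa8, Dnajb1 and Hspe1 were 1.38- to 1.46-fold higher in INTACT-nuclei than in FANS-nuclei. Of the 9 members tested (mean normalized count of at least 5), 5 were higher in INTACT at an adjusted p under 0.05 and 0 were lower (limma on log2(normalized count + 1), Benjamini-Hochberg over 15114 genes), against 18.6% of all genes higher and 17.5% lower. None also reached a 1.5-fold change, which 7.97% of all genes did in either direction. edgeR and DESeq2 on whole reads also called 0 members at that fold. An unadjusted p under 0.05 was reached by 6 members with limma, one of them Hspa1a, which passed the filter only through its INTACT mean, where 44.5% of all genes reached it, and by 5 with each of edgeR and DESeq2 (45.1% and 41.2% of all genes). Hspe1 reached that fold without FANS replicate 2, as did the filter-dependent Hspa1a, and Dnajb1 reached it without FANS replicate 4 or INTACT replicate 4.

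Hspa8, the constitutive HSP70, was at 682, 649, 635 and 654 normalized counts in the FANS libraries and at 902, 900, 897 and 920 in the INTACT libraries. The groups did not overlap, and the spread within each was small (SD 19.6 and 10.5). The difference was 0.47 on the log2 scale (SE 0.05, 95% confidence interval of the fold 1.28 to 1.49, limma adjusted p = 1.76e-07). Hsp90ab1, the constitutive HSP90, was at 1089, 1099, 939 and 1161 in FANS and at 1548, 1522, 1578 and 1536 in INTACT. All INTACT values again stood above all FANS values, by 1.45-fold (1.33 to 1.57, limma adjusted p = 5.74e-08). Its inducible paralog Hsp90aa1 was at 562, 468, 458 and 481 in FANS and at 712, 675, 686 and 677 in INTACT, a 1.40-fold difference (1.27 to 1.54, limma adjusted p = 2.15e-06).

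Dnajb1, the J-domain partner of HSP70, was at 134, 136, 134 and 190 in FANS and at 215, 228, 224 and 192 in INTACT. The groups did not overlap, but FANS replicate 4 came within 3 counts of INTACT replicate 4. The fold was 1.46 (1.25 to 1.71, limma adjusted p = 0.00031). Hspe1, the mitochondrial HSP10, was at 47.6, 80.9, 53.2 and 71.8 in FANS and at 78.7, 82.6, 96.3 and 97.2 in INTACT. Here the highest FANS library overlapped the lowest INTACT library, at a fold of 1.42 (1.13 to 1.79, limma adjusted p = 0.0157). This call did not hold without FANS replicate 1 (adjusted p = 0.0651), INTACT replicate 3 (0.0568) or INTACT replicate 4 (0.0606). In total 4 members had all INTACT libraries above all FANS libraries, an order that 17.1% of all genes tested showed.

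Hsph1, the exchange factor of HSP70, and Hspd1, the mitochondrial HSP60, did not move with them. Hsph1 was at 825 ± 69.7 in FANS and 811 ± 32.5 in INTACT (SD, n = 4 and 4), with an interval of the fold from 0.903 to 1.07. Hspd1, which shares its promoter with Hspe1, was at 206 ± 16.7 and 207 ± 19.97, with an interval from 0.879 to 1.15. These intervals leave out the 1.38-fold and larger differences of the other abundant members.

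Other gene groups moved with technique in batch 1 in the same libraries. Of the 22 abundant cytoplasmic mRNAs tested (Actb, Gapdh, Eef1a1 and others of a list of 23), 20 were higher in INTACT and 0 lower, with a median log2 difference of 0.45, against 0.48 over the members tested and 0.01 over all genes. Their summed level was 13113 to 14454 normalized counts in FANS and 18331 to 18735 in INTACT. Expressed as a percent of that sum, the 10 heat shock genes together amounted to 24.2 to 26.6% in FANS and 24.1 to 24.6% in INTACT. Astrocyte markers summed to 6325 to 7062 in FANS and 7892 to 8083 in INTACT (8 of 10 higher at an adjusted p under 0.05, 0 lower), and oligodendrocyte markers to 6098 to 7631 and 9864 to 10417 (7 of 10 higher, 0 lower). No marker of either list was at 0 in all libraries. Over all genes 18.6% were higher and 17.5% lower. Of 10 neuronal markers 4 were higher and 4 lower. Of 6 tested microglial markers 1 was higher and 1 lower, and of 5 vascular markers 2 and 1. The part of these groups, of depth and of reads outside features in the differences of the members was not tested.

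In batch 2 no member differed between the techniques at an adjusted p under 0.05 (0 of 9 tested by limma, edgeR or DESeq2, and 2 by each at an unadjusted p under 0.05, which 15.2% of all genes reached by limma), where 0.834% of all genes were higher and 0.309% lower in INTACT, and 0.128% also changed 1.5-fold in either direction. Hsp90ab1 spanned 932 to 1195 normalized counts across the FANS libraries (median 1070, n = 7), against 1138 to 1367 across the INTACT libraries (median 1227, n = 4). The ranges overlapped, and the fold was 1.17 (1.06 to 1.29, limma adjusted p = 0.104). Hsp90aa1 spanned 454 to 584 (median 502) and 542 to 640 (median 593), respectively, a fold of 1.16 (1.05 to 1.27, limma adjusted p = 0.122). Hspa8 overlapped widely, at 535 to 735 (median 618) against 588 to 800 (median 667), with a fold of 1.09 (0.971 to 1.23). Dnajb1 (fold 1.02, 0.884 to 1.18), Hspe1 (0.996, 0.808 to 1.23), Hsph1 (1.00, 0.919 to 1.09) and Hspd1 (1.02, 0.912 to 1.13) lay close to equal levels. Of 10 oligodendrocyte markers 5 were higher in INTACT at an adjusted p under 0.05 and 0 lower. Of 9 tested astrocyte markers 2 were higher and 0 lower.

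In batch 3 the abundant members that were higher in INTACT in batch 1 had values on the other side of equality, and Hspa8 was lower in INTACT. Hspa8 spanned 431 to 790 normalized counts across the FANS libraries (median 578, n = 7), against 360 to 532 across the INTACT libraries (median 431, n = 5). The ranges overlapped, and the fold was 0.754 (0.647 to 0.879, limma adjusted p = 0.0458). It was the 1 member of 8 tested with an adjusted p under 0.05, against 0.519% of all genes lower and 1.18% higher, and 0 members reached the 1.5-fold change that 0.36% of all genes reached in either direction (0 also by edgeR and DESeq2). An unadjusted p under 0.05 was reached by 3 members with limma, 3 with edgeR and 2 with DESeq2. Of all genes 13.7%, 13.8% and 12.4% reached it. The Hspa8 call lay near the threshold and did not hold in 9 of the 12 fits that left out a library, where the adjusted p ran from 0.0046 to 0.194 over all 12. Nor was it past the threshold with all genes kept (adjusted p = 0.118) or by DESeq2 (0.131), whereas edgeR gave 0.0397. Limma with the replicate block gave 2.15e-06 (log2 difference -0.48). The labels do not say whether libraries of the same number are paired.

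For the other abundant members of batch 3 the folds were below 1 without an adjusted p under 0.05 in the fit without a replicate block. With the block Hsp90ab1 passed (log2 difference -0.22, limma adjusted p = 0.00906). Hspe1 was at 45.3 ± 7.69 in FANS and 34.1 ± 7.81 in INTACT (SD, n = 7 and 5), a fold of 0.7498 (0.589 to 0.955, limma adjusted p = 0.255). Dnajb1 was at 91.0 ± 9.13 and 77.4 ± 11.0, a fold of 0.849 (0.721 to 0.999, limma adjusted p = 0.361). Hsp90ab1 spanned 707 to 1130 across FANS, against 704 to 830 across INTACT (fold 0.897, 0.802 to 1.00), and Hsp90aa1 spanned 365 to 549 against 359 to 461 (fold 0.918, 0.815 to 1.04). The single highest library for Hspa8, Hsp90ab1 and Hsp90aa1 was FANS replicate 2, in which the abundant cytoplasmic mRNAs also summed highest, at 13474 against 8894 to 11488 in the other FANS libraries and 9438 to 10567 in the INTACT libraries. Without that library the log2 difference was -0.33 for Hspa8 (limma adjusted p = 0.0717), -0.10 in place of -0.16 for Hsp90ab1 and -0.07 in place of -0.12 for Hsp90aa1. Hsph1 (fold 0.970, 0.881 to 1.07) and Hspd1 (0.992, 0.860 to 1.14) again lay close to equal levels. The median of the abundant cytoplasmic mRNAs was -0.16 and that of the 8 members tested -0.14.

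**Figure D2:**
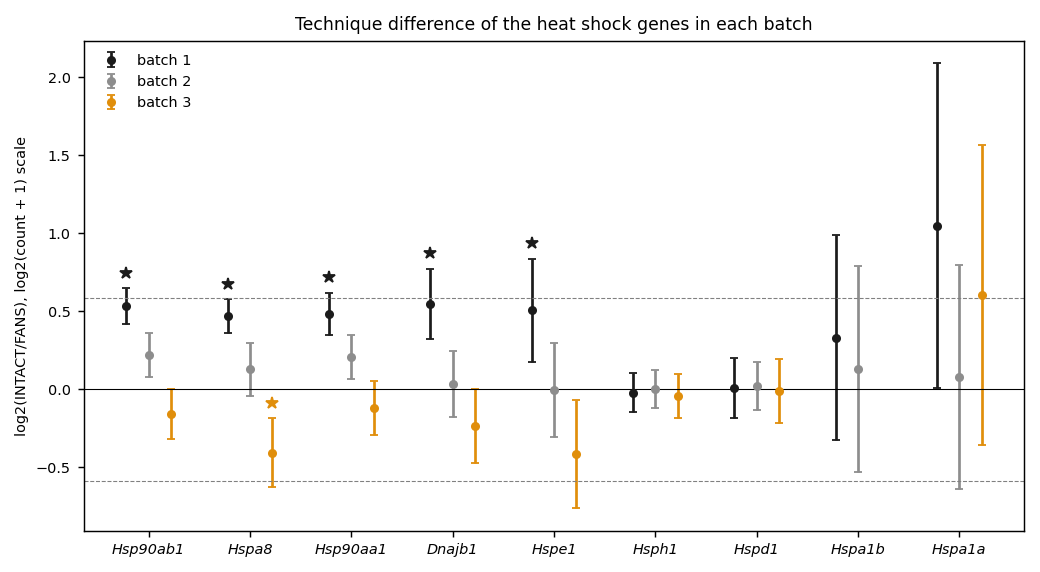
Log2 difference between INTACT and FANS (vertical axis, log2(count + 1) scale) for the 9 members tested in at least 1 batch; points are the estimates, bars their 95% confidence intervals, stars an adjusted p under 0.05 and dashed lines a 1.5-fold change. The first 5 genes step down from batch 1 (black) through batch 2 (grey) to batch 3 (orange), and Hsph1 and Hspd1 stay near 0 in all 3 batches.

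The technique difference itself was compared between batches in a fit over all 31 libraries. For 5 of the 8 members tested the difference in batch 1 exceeded that in batch 3 at an adjusted p under 0.05, an outcome that 11.2% of 14332 genes shared. In log2 units the excess was 0.87 (SE 0.15, limma adjusted p = 3.37e-05) for Hspa8, 0.69 (SE 0.12, 2.1e-05) for Hsp90ab1 and 0.61 (SE 0.12, 0.00017) for Hsp90aa1. It was 0.78 (SE 0.16, limma adjusted p = 0.000317) for Dnajb1 and 0.92 (SE 0.24, 0.00406) for Hspe1. For Hsph1 it was 0.02 (95% interval -0.17 to 0.21) and for Hspd1 0.02 (-0.25 to 0.28). No member passed between batches 1 and 2, where Dnajb1 came nearest (0.51, limma adjusted p = 0.0518), or between batches 2 and 3. Over all genes, 23.6% passed in at least 1 of the 3 contrasts. The batches differ in source and RNA integrity at once, and these cannot be told apart.

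The inducible HSP70 genes and Hspb1 were too low for a firm statement. Hspa1a had 1 to 15 reads per library over the 3 batches. In batch 1 it was at 1.29 to 8.58 normalized counts in FANS (median 2.97) and at 6.06 to 9.96 in INTACT (median 7.36), an overlapping pair of ranges with a log2 difference of 1.05 (0.77 to 1.45 with a library left out, and 0.57 with a pseudocount of 5 in place of 1). Its mean was 3.95 in FANS and 7.68 in INTACT, so that it was tested in batch 1 only through the group where it was high, and its p supports nothing. The same holds for batch 3, with means of 4.04 and 6.72. The log2 differences in batches 2 and 3 were 0.08 (-0.64 to 0.80) and 0.60 (-0.36 to 1.56), the latter 0.34 with the pseudocount of 5. Hspa1b was at 12.6 ± 4.85 in FANS and 15.4 ± 2.58 in INTACT in batch 1 (SD, n = 4 and 4), at 8.71 ± 2.65 and 9.86 ± 3.91 in batch 2, and under the filter in batch 3. Hspb1 had 0 to 2 reads in every library and 0 reads in 18 of 31. A count of 0 allows up to 3 reads, so that no fold is given for it. A difference in these 3 genes was not detectable at this depth unless it was large, and these limits cover counting error only.

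Of the 5 heat shock factor genes and regulators tested, 2 were higher in INTACT in batch 1 and 0 lower, against 18.6% of all genes higher. Hsf1 did not pass in any batch in the fit of all libraries without a replicate block, at a log2 difference of 0.22 (limma adjusted p = 0.0896) in batch 1, 0.09 (0.626) in batch 2 and 0.27 (0.104) in batch 3. In batch 1 its value was 0.07 (limma adjusted p = 0.469) without FANS replicate 4 and 0.28 (0.027) without FANS replicate 3. The batch 3 difference of Hsf1 became 0.31 (limma adjusted p = 0.0317) when FANS replicate 4 was left out. With the replicate block Hsf1 passed in batches 1 (adjusted p = 0.0483) and 3 (0.0417). Hsf2 was at 0.10 (limma adjusted p = 0.235), -0.07 (0.677) and -0.07 (0.738). The genes that passed in batch 1 were Hsf4, at 1.55-fold (1.32 to 1.82, limma adjusted p = 7.74e-05), and Hsbp1, which encodes a heat shock factor binding protein, at 0.55 on the log2 scale (adjusted p = 1.97e-05).

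The batch 1 counts of other chaperones stand against the same 18.6% of all genes higher and 17.5% lower in INTACT. Of 23 tested HSP70 and HSP90 partners, 4 were higher and 5 lower in INTACT in batch 1, shares near those of all genes, with a median of -0.01. The former included Stub1, a ubiquitin ligase that acts on HSP70 clients (1.51-fold, limma adjusted p = 0.000246), and Stip1, the adaptor between HSP70 and HSP90 (0.31 on the log2 scale, adjusted p = 0.0073), and the latter included the J-domain gene Dnajb4 (-0.49, adjusted p = 2.81e-06) and the cochaperone gene Fkbp5 (-0.49, adjusted p = 0.0297). By contrast 7 of 8 subunits of TRiC, the cytosolic chaperonin, were higher in INTACT and 0 lower, with a median of 0.32, and Tcp1 differed most (0.46, limma adjusted p = 1.13e-06). Among 11 tested genes of other heat shock protein families 3 were higher and 0 lower, led by Hspb6 (1.70-fold, limma adjusted p = 0.0103) and Hspa13 (1.55-fold, adjusted p = 1.5e-07). Of 13 other mitochondrial chaperones and proteases 3 were higher, again near the share of all genes, and 1 lower, and the protease gene Htra2 reached 1.51-fold (limma adjusted p = 8.03e-05). In batches 2 and 3, 0 of 55 genes of these 4 lists passed by limma, edgeR or DESeq2, and 3 and 7 had an unadjusted p under 0.05 by limma, against 15.2% and 13.7% of all genes.

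Genes of other stress programmes were counted in the same way. In batch 1, 4 of 14 tested oxidative and metal stress genes were higher in INTACT and 0 lower, against 18.6% of all genes higher, among them the metallothionein genes Mt1 (1.92-fold, limma adjusted p = 0.000643) and Mt3 (1.56-fold, adjusted p = 0.000598). Of 12 tested immediate early genes 7 were higher and 0 lower, against the same 18.6%, led by Ier2 (1.91-fold, limma adjusted p = 0.000746). In batch 3 Jun fell in INTACT, to 44.9 ± 7.04 against 70.8 ± 12.8 in FANS (SD, n = 5 and 7; fold 0.641, limma adjusted p = 0.0126), with no overlap between the groups. Jun was among the 7 genes higher in batch 1 (0.50 on the log2 scale, adjusted p = 0.000597). No other gene of either list passed in batches 2 and 3 by limma, where 1 of 24 and, Jun included, 2 of 23 had an unadjusted p under 0.05, which 15.2% and 13.7% of all genes had.

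**Figure D3:**
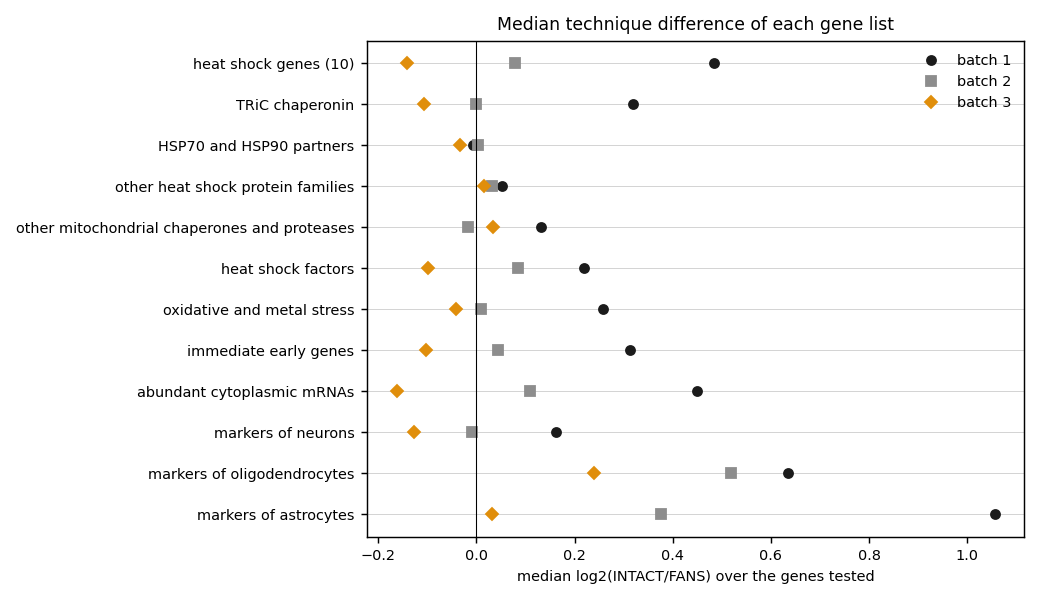
Median log2 difference between INTACT and FANS (horizontal axis) over the tested genes of each list (rows) in batch 1 (black circles), batch 2 (grey squares) and batch 3 (orange diamonds). The heat shock genes, at 0.48, 0.08 and -0.14, lie beside the abundant cytoplasmic mRNAs, at 0.45, 0.11 and -0.16.

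Within the groups, Hspa8 and the HSP90 genes varied together, and Dnajb1 and Hspe1 did not follow Hspa8. After the mean of each batch and technique was taken out, Hspa8 followed Hsp90ab1 with a Pearson r of 0.83 and Hsp90aa1 with 0.73 over the 31 libraries, and the HSP90 genes followed each other with 0.78. The r of Dnajb1 to Hspa8 was 0.07 and that of Hsph1 to Hspa8 0.32, and Hsph1 and Dnajb1 had an r of -0.20 to each other. To Hsp90aa1 and to Hsp90ab1, Dnajb1 had an r of 0.37. Hspe1 had an r of 0.43 to Hspd1 and of 0.02 to Hspa8. The median r to Hspa8 over 10335 genes was -0.04. Among these genes Hsp90ab1 had rank 65 and Hsp90aa1 rank 346, so many other genes followed Hspa8 more closely. The genes most like Hspa8 included Syt13 (r = 0.91), Arl6ip1 (0.90), Fam171b (0.89) and Slc39a10 (0.88), a zinc transporter gene. Those most like Hsph1 were Pik3ca (0.69), Zdhhc17 (0.68), Anxa5 (0.67), Katna1 (0.66) and Rabif (0.66). These correlations describe libraries that share their scaling and differ in depth, and no test was made of them.

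Promoter accessibility was compared in the ATAC-seq peak lists, which the authors called in each library separately. The highest fold enrichment of any peak overlapping 3 kb around a start site was taken for each gene. All members except Hspb1 had such a peak in all 6 lists, as did 15747 of 26180 genes with curated start sites, and for Hspb1 no peak was listed in any. Hspa1a had a peak (chr17:34971750-34972680 over all lists) with a fold enrichment of 14.8, 16.5 and 15.9 in FANS and of 8.15, 8.60 and 8.03 in INTACT. Hspa1b (chr17:34958849-34959749) was at 9.93, 12.3 and 13.8 in FANS and at 6.87, 4.57 and 7.82 in INTACT. The 3 FANS lists stood above the 3 INTACT lists for both genes, by a mean of 15.7 against 8.26 for Hspa1a and of 12.0 against 6.42 for Hspa1b. The log2 ratios of INTACT to FANS, -0.93 and -0.91, compare with a median of -0.22 over all genes with a peak in all lists, of which 2.48% and 2.69% had a lower ratio. Only 4 of 300 promoter bases tell these genes apart and reads of low mapping quality had been removed, so their peak heights are uncertain in both techniques.

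For Hsp90aa1 (chr12:110695644-110696905) the fold enrichment was 17.0, 15.5 and 13.7 in FANS and 12.0, 11.8 and 12.1 in INTACT. Hsp90ab1 had a broad peak of 2219 to 2316 bases at 8.74, 8.26 and 9.19 in FANS and 7.70, 6.53 and 8.19 in INTACT. The peak at the shared promoter of Hspe1 and Hspd1 (chr1:55087325-55088595), which holds the motif matches printed above and counts for both genes, was at 17.7, 16.1 and 17.1 in FANS and 15.0, 12.7 and 15.8 in INTACT. FANS was thus above INTACT in 6 members and below in 0, an order seen in 53.7% and 1.82% of all genes with a peak in all lists. Each such member had the smallest p that 3 against 3 libraries allow, 0.1 (exact permutation test, two-sided). The median log2 ratio of the 9 members, -0.23, was close to that of all genes.

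Hspa8 (18.5, 16.7 and 17.7 in FANS, 16.2, 13.98 and 18.0 in INTACT) and Dnajb1 (17.4, 16.5 and 16.2 against 16.01, 13.6 and 17.0) overlapped between the techniques. Hsph1, whose peak covers its motif matches, was at 15.3, 15.7 and 15.3 in FANS and 16.1, 15.4 and 17.0 in INTACT (exact p = 0.2, n = 3 and 3), and 94.9% of genes had a lower ratio. When each height was divided by the median promoter peak height of its own list, 3 members stayed above in FANS (Hspa1a, Hspa1b and Hsp90aa1), Hsph1 came to lie below, and Hsp90ab1, Hspe1 and Hspd1 overlapped, where 30.8% of all genes with a peak in all lists lay above in FANS and 7.25% below. Without INTACT replicate 3 all but Hsph1 of the 9 members were above in FANS, as were 78.7% of all genes. The RNA and ATAC-seq libraries were separate preparations, so that their values stand side by side only: Hspa1a and Hspa1b, with the largest difference in peak height, were at 1 to 24 reads in RNA, and Hspa8, with an RNA difference in batch 1, overlapped in peak height.

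**Figure D4:**
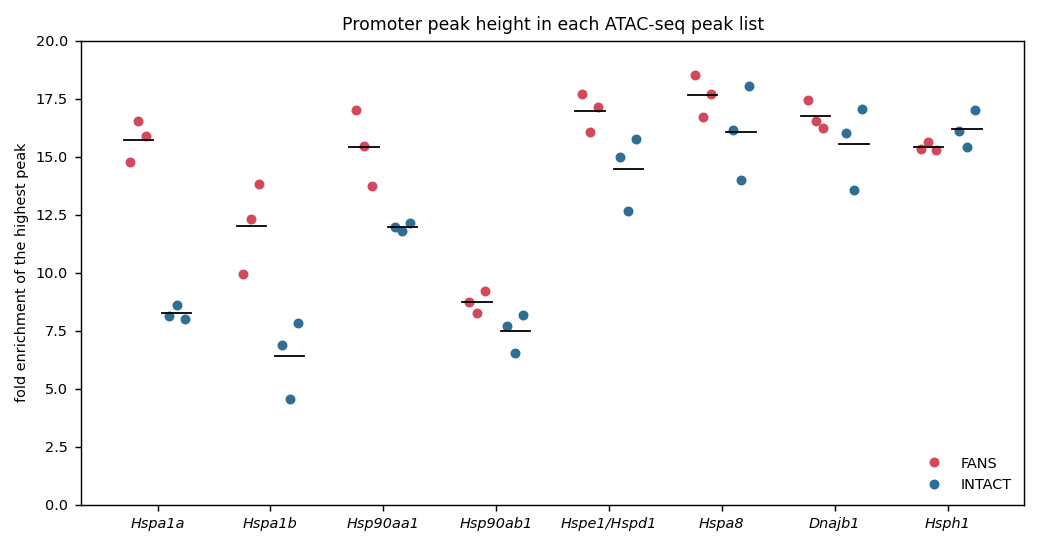
Fold enrichment of the highest peak within 3 kb of a start site (vertical axis) in the 3 FANS (red) and 3 INTACT (blue) ATAC-seq lists, with the mean of each group as a black line; Hspe1 and Hspd1 share 1 peak, and Hspb1 has none. The FANS points lie above the INTACT points for the first 5 peaks, most clearly for Hspa1a and Hspa1b, and overlap for Hspa8, Dnajb1 and Hsph1.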

How the data were processed

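Nuclear RNA was sequenced from sorted sfGFP+ nuclei in 31 libraries, and accessible chromatin in 6 ATAC-seq libraries. The authors aligned single-end reads of 70 bases to mm10 (STAR), collapsed copies sharing a molecular identifier, retained reads that mapped uniquely, counted them per gene (HTSeq) and normalized them (DESeq). The deposited RNA values are a signal, normalized counts scaled within each of 3 tables; each value was a whole multiple of 1 read (100% of values within 0.1 read), so reads were recovered for depth and for the count tests. The 5 rows that name no gene were left out; reads outside features were 71.3 to 85.1% of each library. For ATAC-seq the authors used Bowtie2, a mapping quality filter and MACS2 in each library; the deposited lists give a score, the fold enrichment as a ratio, and −log10 p- and q-values.

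Tables were fitted separately with limma 3.58.1 (trend) on log2(normalized count + 1) for genes with a mean of at least 5, with Benjamini-Hochberg adjustment over all genes tested, an adjusted p under 0.05 and, for a call, a change of at least 1.5-fold. edgeR 4.0.16 and DESeq2 1.42.0 on recovered reads, a pseudocount of 5, no filter, other scalings (75th percentile, quantile), a replicate block and each library left out were alternatives. The difference between batches was fitted over all libraries. Peaks were assigned within 3 kb of any curated RefSeq start site of GRCm38.p6. The limma fits recovered most planted changes in simulated data. These were larger than the changes of the abundant members and lay in genes with more reads than Hspa1a, Hspa1b and Hspb1. The simulation therefore does not show how well changes of the members' size are found. Tested means fitted after the filter. Sums of normalized counts describe marker lists.

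The members and gene lists were chosen with earlier results of these data known. Named were every member, Hsf1 and Hsf2, of each other chaperone or stress list up to 3 called genes per batch and direction, and the 5 genes most correlated with Hsph1 and with Hspa8 (mean of at least 50), of which 1 is not reported here. Hsbp1, Stip1, Tcp1, Dnajb4, Fkbp5, and Jun in batch 1, were named after their values were seen. FANS replicate 3 and INTACT replicate 5 of batch 2 were not analysed here.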

Additional observations from a re-analysis of the deposited data

Results flagged for a closer look

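The technique difference of 5 members was larger in batch 1 than in batch 3 in the limma fit over all libraries, as it was for 11.2% of 14332 genes. On the log2 scale the excess of batch 1 was 0.78 for Dnajb1, 0.87 for Hspa8, 0.61 for Hsp90aa1, 0.69 for Hsp90ab1 and 0.92 for Hspe1. In each of the 31 fits that left out a library, 5 members had an adjusted p under 0.05 in at least 1 contrast. In the fit of all libraries 23.6% of all genes did.

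In batch 1, FANS replicate 4 stood apart for Dnajb1, at 190 normalized counts against 134 to 136 in the other FANS libraries. Without it the log2 difference of Dnajb1 was 0.67 in place of 0.54. FANS replicate 1 of batch 1 had 1.29 normalized counts of Hspb1, which is 1 read, against 0 in the others. Such a gap was looked for in 59 groups of libraries and found in 2, where chance gives about 1 in 20. That rate does not hold for the Hspb1 gap, since any 1 read among counts of 0 gives it.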

How the results depend on the processing

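No member was called at 1.5-fold in any batch under another pseudocount, filter, scaling, count test or the replicate block; without a fold threshold 5 members passed in batch 1, 0 in batch 2 and 1 in batch 3, and 5458, 170 and 246 genes against 1205, 19 and 52. With 1 library left out, 0 to 2 members were called in batch 1 (0 in the others), and 1074 to 1356, 6 to 39 and 32 to 72 genes. DESeq2 called 8 genes in batch 2 and 33 in batch 3. With the replicate block 3 and 114 genes were called; for the members it put Hsp90ab1 past an adjusted p of 0.05 in batch 3 (-0.22, adjusted p = 0.00906) and Hsf1 in batches 1 (0.0483) and 3 (0.0417), and changed no other call among them. The labels do not say whether libraries of the same number are paired. Their deviations from the group means correlated with r from -0.0704 to 0.112, and not every library correlated best with its own number. The members whose difference varied between batches stayed at 5 under every alternative.

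Signs turned only for genes not called. Hspd1 in batch 1 was at -0.0187 (75th percentile) and -0.0215 (quantile) under other scalings. In batch 2, Hspa1a was at -0.0153 by edgeR and -0.00694 by DESeq2, and Hsph1 at -0.0016 by edgeR, -0.00014 by DESeq2, -0.0202 with 75th percentile scaling, -0.0136 with quantile normalization and -0.0371 with the replicate block. Hspe1 was at 0.0385 by edgeR and 0.0387 by DESeq2, and the block gave -0.0920 for Dnajb1, 0.157 for Hspe1 and -0.00469 for Hsf1. With a library left out, Hsph1 ran from -0.0635 to 0.0256 and Hspd1 from -0.0479 to 0.0526 in batch 1. In batch 2 Hspa1a ran from -0.0744 to 0.195, Hspa1b from -0.0770 to 0.363, Hsph1 from -0.0236 to 0.0419, Dnajb1 from -0.0219 to 0.0683 and Hspe1 from -0.123 to 0.144, and in batch 3 Hspd1 from -0.0653 to 0.0335. The cause was not tested.

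With peak heights divided by the list's median, 3 members in place of 6 were above in FANS and 1 in place of 0 below. Of all genes with a peak in all lists, 30.8% in place of 53.7% were above and 7.25% in place of 1.82% below. With a list left out the member counts were 6 to 8 and 0 to 1, against 54.7 to 78.7% and 2.15 to 4.10% of all genes. Depth limits Hspa1a, Hspa1b and Hspb1.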
